A study of Danio rerio with 6 samples.

Results

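Transcripts of 36 nuclear genes were compared between cells sorted with and without activity of an NF-kB reporter, all positive for an endothelial reporter. The genes serve the mitochondrial ribosome, protein import, the respiratory chain and the carriers of the inner membrane. The study asked how endothelial NF-kB contributes to the specification of blood stem and progenitor cells, and used trunks of zebrafish at 22 hpf (hours after fertilization). These animals carried NFKB:d2eGFP, a short-lived green reporter of NF-kB, and kdrl:mCherry, a red reporter driven by the promoter of the VEGF receptor gene kdrl. Both sorts carried both transgenes, and NF-kB itself was not perturbed. The dissociated tissue was sorted, without dead cells, into kdrl+/NFKB+ and kdrl+/NFKB- fractions of about 7000 cells a sample, and 3 libraries of each fraction were sequenced. The 36 genes are the rows of the deposited table whose names begin with mrps, mrpl, timm, tomm, nduf, uqcr, cox, atp5, sdh or slc25a in the forms used for these families. The iron carrier gene slc25a37 was left out, and 2471 genes were analysed in all. That table had already been limited by the authors to genes that differed 2-fold or more between these same libraries at an adjusted p of 0.01. The genes were thus selected on the measured difference between the sorts, and their differences are given as a description, with no test.

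Most mitochondrial proteins are encoded in the nucleus, made in the cytosol and imported through the translocases of the outer (TOM) and inner (TIM) membrane. The mitochondrial ribosome makes the few respiratory chain subunits that mitochondrial DNA encodes, and these join imported subunits, with the help of assembly factors, in complexes that carry electrons and make ATP. Carriers of the SLC25 family move metabolites across the inner membrane. In developing red blood cells mitochondria also carry out steps of heme synthesis, for which iron and iron-sulfur clusters are needed.

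Both sorts held endothelial transcripts, and the sorts differed in endothelial and blood transcripts. Of 21 pan-endothelial markers listed, 14 were analysed and 13 of these were higher in NFKB+ cells. Of all rows 54.5% were higher, and only markers past the authors' limits could be among the rows. The summed level of the 14 endothelial markers was between 504547 and 526694 normalized reads in NFKB+ and between 183188 and 232062 in NFKB- libraries. Normalized reads are reads divided by the authors' library size factor. The summed level of the 17 erythroid markers analysed, of 24, lay between 721117 and 874589 in NFKB+ and between 5131532 and 7130874 in NFKB- libraries. For the 17 myeloid markers analysed, of 20, it lay between 21870 and 26452 in NFKB+ and between 182994 and 227660 in NFKB- libraries. None of these endothelial, erythroid and myeloid markers was at 0 in any library. Of 12 markers each for epidermis, nerve and muscle, 3 (all higher), 4 (2 higher, 2 lower) and 0 were among the rows. The 5 globin genes made up 7.34% ± 0.588 of the table's normalized reads in the NFKB+ sort, and 39.1% ± 2.90 in the NFKB- sort (mean ± SD, n = 3 each). What part the blood transcripts had in the differences below was not tested. In bulk samples such as these, fewer cells of a type and less RNA per cell cannot be told apart.

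Nearly all of the 36 mitochondrial genes, each past the authors' limits, were lower in NFKB+ cells. Of the 36, 34 were lower and 2 were higher, and the 2 exceptions were carriers, slc25a1a and slc25a35. Among all 2471 genes 45.5% were lower and 54.5% higher by the same rule (limma, Benjamini-Hochberg adjusted p of 0.05 over all rows). Every row passed that rule, in a table already selected on the contrast, so nothing is read from these counts. The median log2 difference, NFKB+ minus NFKB-, was -1.25 over the 36 genes against 1.08 over all rows. Among lower rows alone it was -1.29 for the 34 lower genes and -1.52 for all 1124 lower rows. The libraries of the sorts did not overlap for any of the 36 genes, and this held for 99.6% of all rows. Rows that were lower without overlap made up 45.4% of the table and included the 34 lower genes. The direction of each gene held under 3 other scalings of the libraries, but the size did not. These scalings were computed from the selected rows alone, which hold no gene under 2-fold, so they cannot decide the size. The median over the 36 genes was -0.76 with libraries scaled to the same total of the table and -2.13 with median-of-ratios scaling. Of the 34 lower genes, 7 (20.6%) were lower by a log2 difference of 1.5 or more, against 585 (52.0%) of the 1124 lower rows, which is 23.7% of all rows. At 2 or more the shares were 4 of 34 (11.8%) and 365 of 1124 (32.5%), or 14.8% of all rows. Most mitochondrial differences thus lay close to the 2-fold limit, and the gene nearest to it was mrpl10, with a log2 fold change of -1.01 in the authors' deposited table. Genes outside the limit are not analysed here. The RefSeq annotation holds 277 protein-coding symbols of these name families, and 35 of these (12.6%) were in the table by gene ID. For all protein-coding genes the share was 9.0%, so the 36 genes do not describe the families as a whole.

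**Figure D1:**
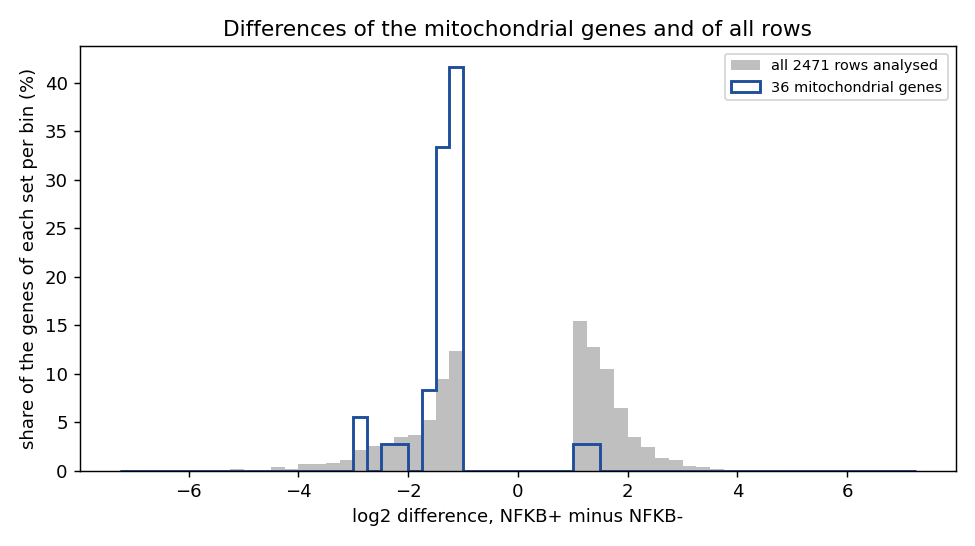
Share of the 36 mitochondrial genes (blue outline) and of all 2471 rows (grey) in bins of the log2 difference, NFKB+ minus NFKB-. The empty middle is the authors' 2-fold limit, and 34 of the 36 genes lie on the lower side, mostly between -1 and -1.5.

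Genes named for the mitochondrial ribosome formed the largest subgroup, and all 14 of them were lower in NFKB+ cells. By name, 6 genes belonged to the small subunit, with a median log2 difference of -1.10, and 8 to the large subunit, with a median of -1.21. Normalized reads are given below for libraries 1, 2 and 3 of the NFKB+ sort and then 4, 5 and 6 of the NFKB- sort. Transcripts of mrps15, a small-subunit protein with a bacterial counterpart, numbered 1759, 1913 and 1769 in NFKB+ and 5295, 6159 and 6238 in NFKB- libraries. The difference was -1.70 ± 0.11 (limma standard error, n = 3 per sort), or 3.24-fold lower. It was the largest difference among the 14, and the highest NFKB+ library lay well below the lowest NFKB- library. Transcripts of mrps33, a protein found in mitochondrial but not bacterial ribosomes, numbered 1959, 1959 and 2018 against 4448, 4339 and 4880.1, a 2.30-fold lower level. For mrps18a, whose mammalian product has been placed in the large subunit despite its name, they numbered 1386, 1269.5 and 1419 against 2797, 2761 and 3182, 2.14-fold lower. The smallest difference of the subunit was that of mrps11, with 1909, 1763 and 1553 against 3186, 3362 and 4153, 2.04-fold lower. The replicates of mrps33 were almost level in NFKB+ cells, and those of mrps11 were spread more widely, without overlap between the sorts. The remaining genes of this name, mrps14 and mrps36, were 2.14- and 2.10-fold lower. The RefSeq table pairs the ID of mrps36 with the symbol kgd4, after a component of the 2-oxoglutarate dehydrogenase complex, so its place in the ribosome is uncertain.

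The 8 large-subunit genes in the table lay between log2 differences of -1.51 and -1.02, a range cut on its small side by the authors' 2-fold limit. Transcripts of mrpl43, a protein with no bacterial counterpart, numbered 829, 921 and 920.0 in NFKB+ and 2141, 2568 and 2942 in NFKB- libraries, with a log2 difference of -1.51 ± 0.14. Those of mrpl11, which in bacteria sits at the base of the stalk where translation factors bind, numbered 2164, 1893 and 1986 against 4704, 5016 and 6149.6, a difference of -1.38 ± 0.12. In both genes library 6 was the highest of the NFKB- sort and library 4 the lowest. For mrpl27, the homologue of a bacterial protein near the peptidyl transferase centre, the values were 1469.8, 1478 and 1572 against 3568, 3729.9 and 4029, a difference of -1.32 ± 0.11. At the small end, mrpl10, another protein of the stalk base, had 532, 422 and 486 against 865, 915 and 1148, 2.03-fold lower. The genes mrpl48, mrpl52, mrpl41 and mrpl9 lay between them, at 2.38-, 2.26-, 2.24- and 2.04-fold lower. Among the 14 genes named for the mitochondrial ribosome the log2 difference thus ran from -1.70 to -1.02.

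**Figure D2:**
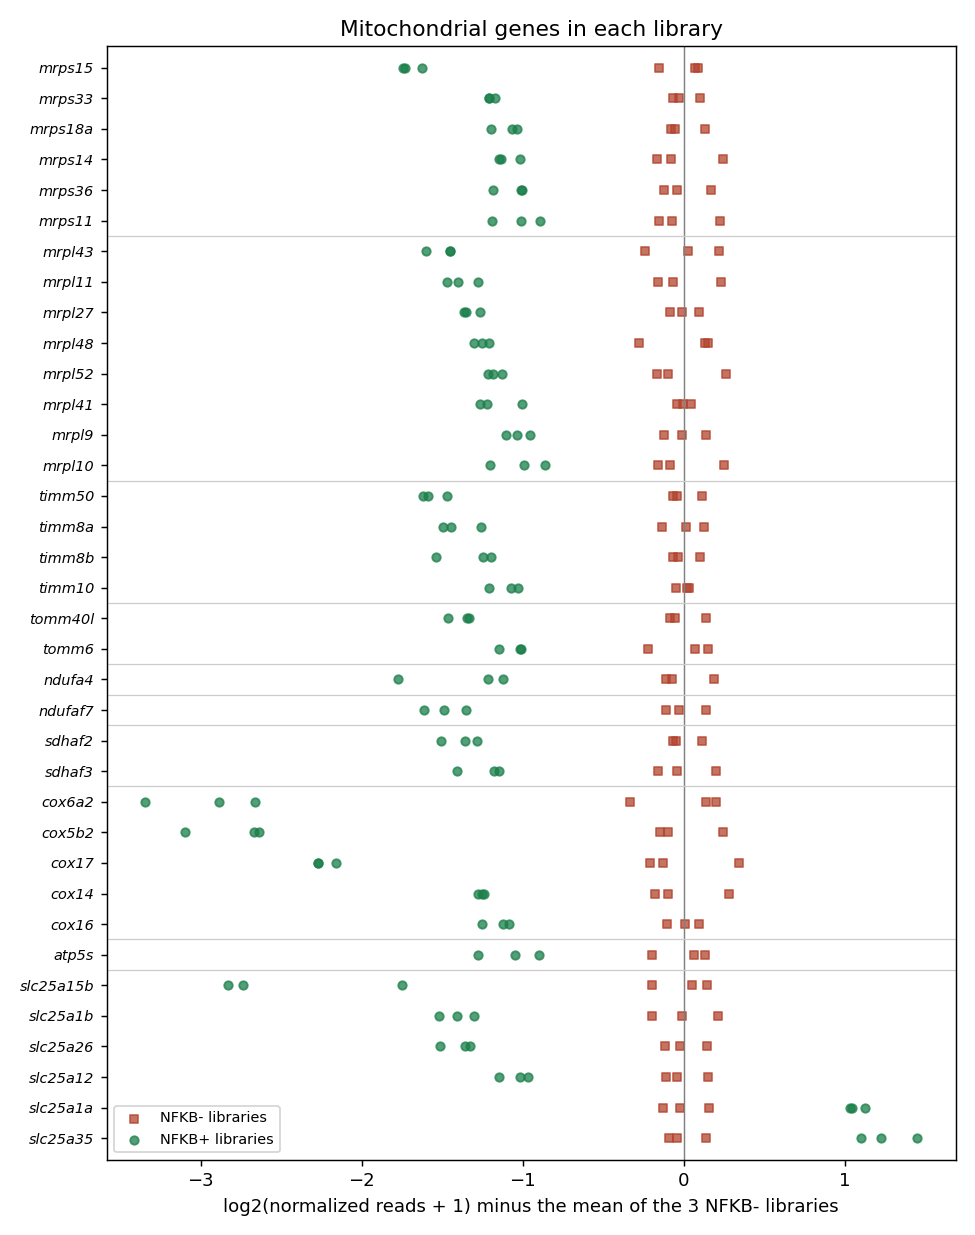
Each of the 36 genes in each library, as log2(normalized reads + 1) minus the mean of the 3 NFKB- libraries (squares, NFKB-; circles, NFKB+); grey lines separate subgroups. Circles lie left of the squares for 34 genes and right of them for slc25a1a and slc25a35, and cox6a2, cox5b2, cox17 and slc25a15b lie farthest left.

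The import genes, 4 of the inner membrane and intermembrane space and 2 of the outer membrane, were lower in NFKB+ cells without exception. Transcripts of timm50, the receptor subunit of the TIM23 translocase that takes over presequence proteins, numbered 1116, 1239.5 and 1139.5 in NFKB+ and 3291, 3354 and 3710.0 in NFKB- libraries. This was 2.96-fold lower, a log2 difference of -1.57 ± 0.12 and the largest among the import genes. Small TIM proteins chaperone hydrophobic precursors across the intermembrane space, and 3 of their genes were analysed. For timm8a, whose human counterpart is mutated in a deafness-dystonia syndrome, the normalized reads were 1881, 1647 and 1589.9 against 4085, 4538 and 4899, 2.64-fold lower. Its paralogue timm8b had 782, 615 and 755 against 1751, 1709 and 1924, 2.51-fold lower. For timm10, the partner of timm9 in the main small TIM complex, they were 1396, 1542 and 1582 against 3122, 3304 and 3274, 2.15-fold lower. The timm8 paralogues were thus lower by nearly the same factor, with NFKB+ library 2 lowest for timm8b and library 3 lowest for timm8a.

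In the outer membrane, tomm40l is a paralogue of the gene for the TOM channel. Its transcripts numbered 1734, 1898 and 1886 in NFKB+ and 4603, 4509.6 and 5253 in NFKB- libraries, 2.60-fold lower. For tomm6, a small subunit that stabilises the TOM complex, the values were 3331, 3642 and 3676 against 6351, 7729.8 and 8195, 2.08-fold lower. A further row, named arid4b in the deposited table, carries a gene ID that the RefSeq table pairs with tomm20a, the receptor for presequences. The name kept it out of the 36 genes, and its level was 2.12-fold lower, a log2 difference of -1.08 ± 0.11. Reads of paralogues that are nearly identical in sequence could have been misassigned or lost in the authors' counting. Sequences were not compared here, so whether this bears on tomm40l, timm8a, timm8b, ndufa4, cox6a2, cox5b2 and the paired carrier genes is unknown.

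Respiratory chain genes in the table were mostly those of assembly factors. The RefSeq annotation holds 96 protein-coding symbols of the structural subunits of complexes I to V in these name families, and 3 of these (3.12%) were in the table. Of 21 symbols of assembly factors for complexes I, II and IV, 6 (28.6%) were in the table. For ribosomal proteins of the mitochondrion the count was 13 of 75 (17.3%), and for all protein-coding genes it was 2433 of 27039 (9.0%). These shares were drawn up after the values were seen and were not tested, and a symbol outside the table may have missed the authors' limits or may not have been in their annotation. No uqcr gene, which encode complex III, was among the rows.

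For complex I, ndufaf7 encodes an arginine methyltransferase that acts in its assembly. Its transcripts numbered 560.5, 615 and 515 in NFKB+ and 1454, 1541 and 1730.3 in NFKB- libraries, 2.79-fold lower. The gene ndufa4 (RefSeq symbol ndufa4b) was named for complex I, and its mammalian product is now placed in complex IV. With 58.1, 62.3 and 39.1 against 129.7, 155 and 126 normalized reads it was 2.59-fold lower, at -1.37 ± 0.32 on the log2 scale, and library 3 stood below the other NFKB+ libraries. Both sdh genes encode assembly factors of complex II, the succinate dehydrogenase. For sdhaf2, needed to attach the flavin cofactor, the values were 569, 512 and 596 against 1388, 1409 and 1577, 2.61-fold lower. For sdhaf3, which acts in maturation of the iron-sulfur subunit, they were 295, 354 and 346 against 702, 763 and 901, 2.37-fold lower. The row atp5s, to which the RefSeq table gives the symbol dmac2l, was 2.10-fold lower, at 188, 144 and 169 against 305, 384 and 365. Its sorts lay closest together of the 36, with a gap of 0.69 on the log2 scale between the highest NFKB+ and the lowest NFKB- library.

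Complex IV, the cytochrome c oxidase, held 3 of the 4 largest differences. Transcripts of cox6a2, whose mammalian counterpart is the heart and skeletal muscle form of subunit VIa, numbered 35.3, 21.6 and 30.2 in NFKB+ and 252, 181 and 263 in NFKB- libraries. The difference of -2.96 ± 0.34, or 7.80-fold, was the largest of all 36 and rests on few reads. Contractile genes that are not on the muscle list went both ways. Lower ones included tpm1, tnnt2a, tmod4 and smtnl1, with log2 differences of -1.98, -1.41, -2.80 and -2.09. Higher ones included tpm4a, tpm4b and cnn2, at 1.80, 1.11 and 1.52. All of these were named after their values were seen, and their part in the cox6a2 difference was not tested. For cox5b2, a gene for a form of subunit Vb, the values were 25.9, 36.0 and 35.3 against 208, 214 and 272, 6.97-fold lower at -2.80 ± 0.32. The copper chaperone gene cox17, which delivers copper for the metal centres of the oxidase, was measured on many more reads. It had 1319, 1322 and 1424 in NFKB+ and 5523, 5844 and 8072 in NFKB- libraries, a difference of -2.24 ± 0.14, or 4.71-fold lower. Its NFKB+ libraries lay close together, while library 6 stood above the other NFKB- libraries. The assembly factor genes cox14 and cox16 were near the rest of the mitochondrial genes. For cox16 the values were 515, 580.2 and 564 against 1141, 1235 and 1309.7, 2.22-fold lower, and cox14 was 2.38-fold lower with a log2 difference of -1.25. The erythroid markers, which were lower in the same libraries, had a median log2 difference of -2.73, and their part in the cox differences was not tested.

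**Figure D3:**
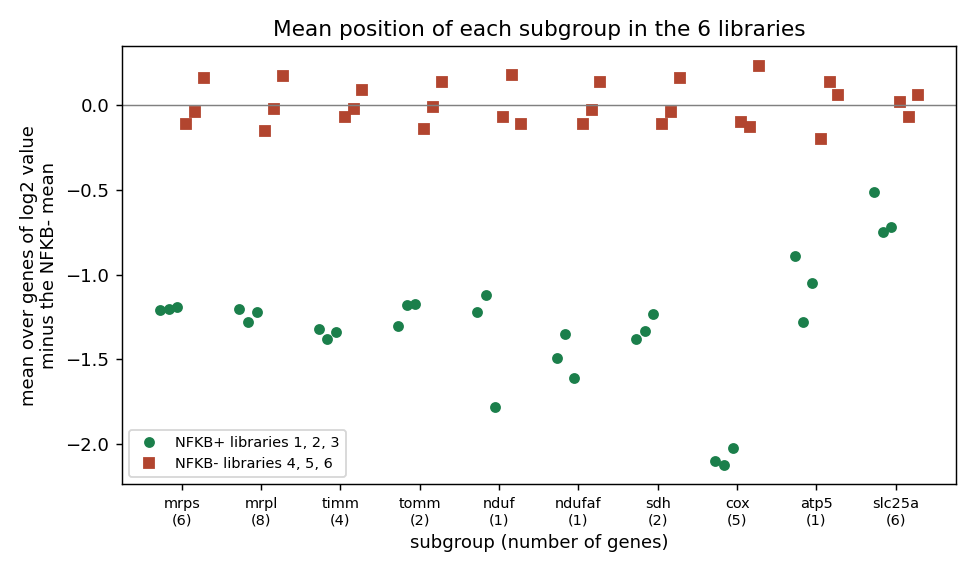
Mean over the genes of each subgroup of the log2 value minus the NFKB- mean, 1 point per library (circles, NFKB+ libraries 1 to 3; squares, NFKB- libraries 4 to 6; number of genes in parentheses). The cox genes lie lowest in NFKB+ libraries, between -2.12 and -2.02, and the slc25a genes highest, between -0.75 and -0.51, since 2 of their 6 members were higher.

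Carriers were the one subgroup that went both ways, with 4 genes lower and 2 higher in NFKB+ cells. The citrate carrier exports citrate to the cytosol for lipid synthesis, and its paralogues slc25a1a and slc25a1b differed in opposite directions. Transcripts of slc25a1a numbered 1497, 1592 and 1512 in NFKB+ and 815, 718 and 668 in NFKB- libraries, a difference of 1.07 ± 0.14, or 2.10-fold higher. Those of slc25a1b numbered 232, 198 and 215 against 496, 568 and 661, a difference of -1.41 ± 0.20, or 2.66-fold lower. For slc25a1a every NFKB+ library exceeded every NFKB- library, and for slc25a1b the order was the reverse. The other higher carrier, slc25a35, another member of the SLC25 family, had 217, 187 and 170.0 against 86.9, 76.6 and 74.1. It was 2.39-fold higher, at 1.26 ± 0.27. Neither higher call passed the threshold under median-of-ratios scaling, whose factors came from the selected rows alone. That scaling moved the median of all rows by -0.88, and the differences were 0.19 for slc25a1a and 0.39 for slc25a35. The selected rows hold no gene under 2-fold to set the scale by, so this does not decide whether the calls are stable.

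The carriers on the lower side differed in substrate. Transcripts of slc25a12, a carrier that exchanges aspartate for glutamate, numbered 2875, 3249 and 3157 in NFKB+ and 5908, 6197 and 7057 in NFKB- libraries, 2.06-fold lower. For slc25a26, which brings the methyl donor S-adenosylmethionine into the matrix, the values were 631, 565 and 641 against 1584, 1491 and 1784, 2.64-fold lower. The ornithine carrier gene slc25a15b had the fewest reads of the 36, with 29.1, 13.2 and 14.1 against 111, 87.2 and 104. Its difference of -2.44 ± 0.43, or 5.42-fold lower, was the least precise of the set, and library 1 stood above the other NFKB+ libraries. For comparison, slc25a37 (mitoferrin), the iron importer of developing red cells that was left out of the set, was 5.31-fold lower, at -2.41 ± 0.14.

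**Figure D4:**
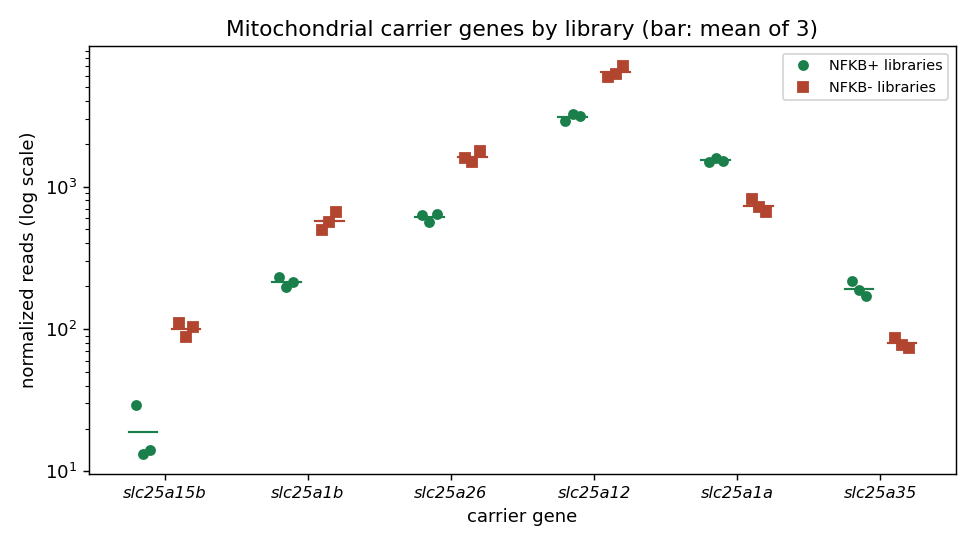
Normalized reads (log axis) of the 6 carrier genes in each library (circles, NFKB+; squares, NFKB-; bar, mean of 3 libraries). The sorts are separated for each gene, and slc25a1a and slc25a35 are the carriers with NFKB+ above NFKB-.

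The NFKB+ libraries were alike in these genes and the NFKB- libraries were graded. Averaged over the 34 lower genes, NFKB+ libraries 1, 2 and 3 lay at -1.39, -1.45 and -1.41 on the log2 scale relative to the NFKB- mean. The NFKB- libraries 4, 5 and 6 lay at -0.11, -0.04 and 0.15. Library 6 was the highest of its sort for 30 of the 34 genes, and library 4 the lowest for 25. The same counts over all rows were not made, so the grading is not read as particular to these genes. The globin share of the table followed the same order, at 35.9%, 39.7% and 41.7% in libraries 4, 5 and 6, and its part in this grading was not tested. The erythroid marker urod also rose, at 177307, 206573 and 246853 normalized reads. The endothelial markers analysed were highest in library 4 of the NFKB- sort, except tal1. The markers kdrl, cdh5, tie1, tek, fli1a, fli1b, etv2, egfl7, sox7 and esama fell from library 4 to 5 and again to 6. For tie1 the values were 19924, 14925 and 13576. The markers kdr, pecam1 and erg were lowest in library 5, with erg at 11384, 8425 and 9111. The exception tal1, which was also lower in NFKB+ cells, was at 31437, 33553 and 33509. The printed values are examples from the marker lists, and the part of these markers in the grading was not tested. Without library 6 the median log2 difference over the 36 genes was -1.16. The SD between replicates on the log2 scale had a median of 0.097 in NFKB+ and 0.15 in NFKB- libraries. It was smallest for cox14 in NFKB+ libraries, at 0.021, and largest for slc25a15b in the same sort, at 0.60.

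Together the 36 genes took between 0.391% and 0.417% of the table's normalized reads in NFKB+ libraries and between 0.680% and 0.689% in NFKB- libraries. With globins left out of the total, the shares were 0.423% to 0.447% and 1.06% to 1.18%. The ranges of the sorts did not overlap on either basis. The genes had been selected on this same contrast, so nothing is read from that separation. The percentages are shares of the selected rows and not of whole libraries.

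Other genes for mitochondrial functions were in the table on both sides, with more of the listed ones lower. Outside the name families, 8 lists held 233 genes for such functions or for nuclear regulators of them, and 32 were in the table. Of these, 31 were lower and 1 higher in NFKB+ cells, in a table where 45.5% of all rows were lower. The median log2 difference was -1.35. The lists, like the 36 genes, were chosen with results of these data known, so nothing is read from their counts. Mitochondrial genes outside the lists also lay on both sides, and examples were named after their values were seen. Lower ones included chchd6a, chchd10, prdx3 and ucp2, at -2.22, -2.02, -1.68 and -1.43 on the log2 scale. Higher ones included iscub, glud1a, msrb2 and ak4, at 1.58, 1.40, 3.52 and 1.02, with a standard error of 0.92 for msrb2. With median-of-ratios scaling the higher examples were at 0.71, 0.52, 2.99 and 0.14, and iscub and ak4 no longer passed the threshold. That scaling was set from the selected rows alone, so it does not decide whether these calls are stable. Of 29 genes for mitochondrial DNA maintenance, transcription and RNA processing, 6 were in the table and all 6 were lower. The methyltransferase gene tfb1m, which modifies the small-subunit RNA, and the transcription factor gene tfb2m were 3.01- and 2.19-fold lower. The mRNA-binding partners lrpprc and slirp were 2.39- and 2.94-fold lower, with 2385, 2441 and 2707 against 6396, 7124 and 8825 normalized reads for slirp. The genes dguok, a deoxynucleoside kinase, and trmt10c, which takes part in tRNA processing, were 2.07- and 2.19-fold lower.

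Genes that act beside the ribosome and the translocases were represented in small numbers. Of 32 further genes for mitochondrial translation, 3 were in the table and lower. These were the release factor gene mtrf1, with 209, 155 and 194 against 627, 662 and 900.0 normalized reads, rmnd1, which is needed for mitochondrial translation, and eral1, a chaperone of the small-subunit RNA. Their levels were 3.89-, 3.81- and 2.65-fold lower. Of 39 import, processing and chaperone genes, 6 were in the table and lower. They included hspa9, the Hsp70 of the import motor, with 6675, 6243 and 7111 against 15914, 16768 and 17731, 2.52-fold lower. Its exchange factor gene grpel1 was 2.58-fold lower, and the inner membrane peptidase gene immp2l 2.84-fold lower. The prohibitin genes phb2a and phb2b and the cristae gene chchd3a were 2.08-, 3.12- and 2.36-fold lower.

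Of 36 further genes for respiratory chain assembly and electron transfer, 7 were in the table, each lower. The cytochrome c gene cycsb had 7369.8, 7751 and 8155 against 15747, 18335 and 19681, 2.30-fold lower. The complex III factors bcs1l and lyrm7 were 2.34- and 2.90-fold lower, the complex I factors foxred1 and tmem126a 2.23- and 2.70-fold lower, and the complex IV factor coa7 2.83-fold lower. The flavoprotein gene aifm1 was 2.58-fold lower. Of 28 listed genes for coenzyme Q and iron-sulfur clusters, 4 were in the table and lower, while iscub, a gene of the cluster scaffold that the list does not hold, was higher at 1.58 ± 0.30. The glutaredoxin gene glrx5, which passes on iron-sulfur clusters and is needed for heme synthesis in zebrafish red cells, had 8078, 9039.6 and 8942 against 30655, 34308 and 42189, 4.08-fold lower. The cluster factor gene iba57 was 2.63-fold lower, and the coenzyme Q genes coq2 and coq3 2.26- and 2.16-fold lower.

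Of 32 genes for the tricarboxylic acid cycle and pyruvate use, 2 were in the table, idh3b and the pyruvate dehydrogenase kinase gene pdk2b, at 2.07- and 5.22-fold lower. The porin gene vdac2 and the outer membrane gene tspo, which is also on the erythroid list, came from a list of 20 and were 2.44- and 5.31-fold lower. The list of 17 nuclear regulators gave 2 rows with opposite directions. The Myc family gene mycb had 2365, 2702 and 2333 against 4775, 5486 and 5181, 2.09-fold lower. The factor gene tfec, a relative of the lysosomal regulator tfeb, was the exception among the 32, at 7.63-fold higher. The regulators ppargc1a, nrf1, gabpa and esrra were not among the rows.

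**Figure D5:**
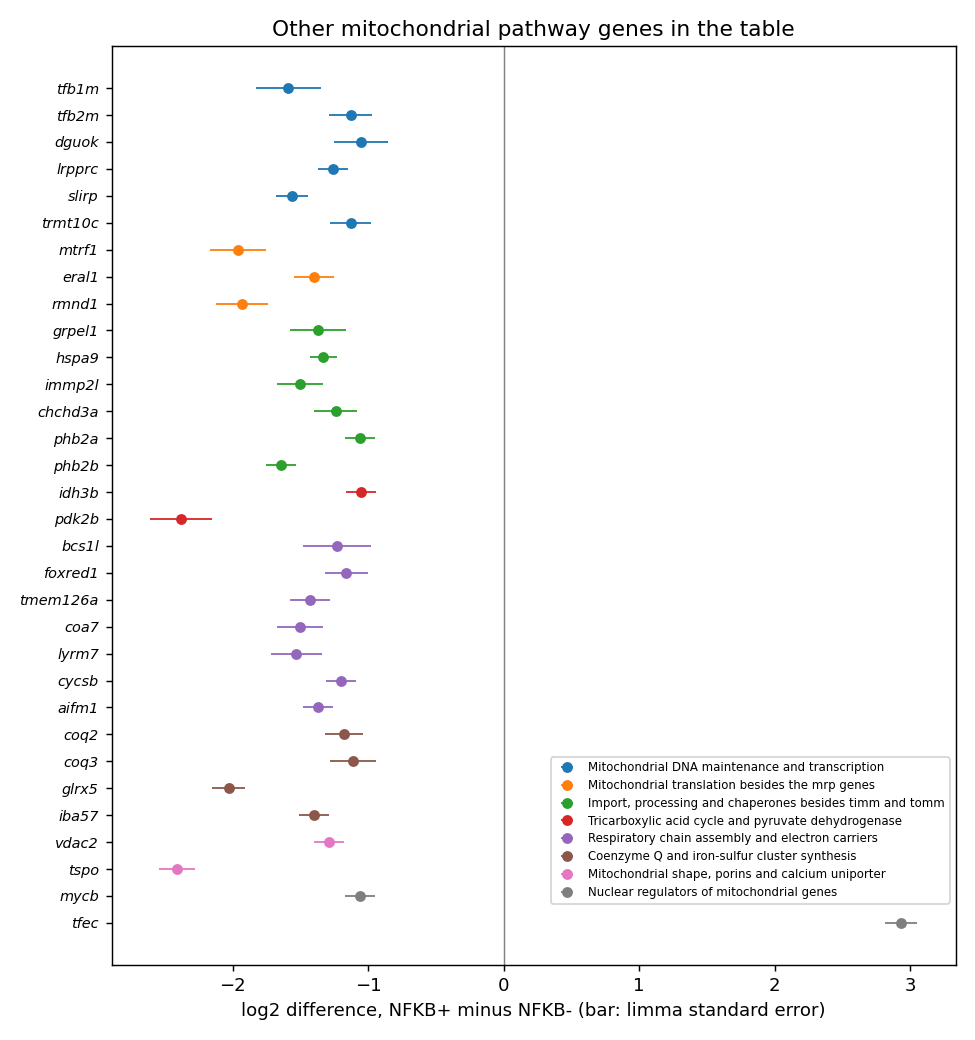
Log2 difference, NFKB+ minus NFKB-, with its limma standard error, for the 32 listed genes outside the name families, coloured by list. The genes serve mitochondrial functions or, as for tfec and mycb, are listed as nuclear regulators of mitochondrial genes. All lie at the left of 0 except tfec.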

How the data were processed

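Per the labels' protocols, RNA of about 7000 sorted cells per sample was made into low-input libraries. Of software, cutadapt, STAR, HTSeq and DESeq2 are listed, with the build danRer10, per the submitters' processing notes. Their roles and versions, the annotation and strand use are not given in the sources used here. The deposited table has, per the file headers, 2475 rows with a log2 value per library, a signed fold score, a log2 fold change and p-values, all computed by the authors. Each analysed row met 2-fold and adjusted p 0.01 in them, so counts describe a selected list. Rows of 2 gene names that occurred more than once (4 rows) were left out, leaving 2471. Their library values were interleaved. The deposited log2 values were read as log2(normalized reads + 1), since undoing the log and dividing by a step found for each library returned whole reads (to within 0.1) for 100% of values under 1000 reads. Reads recovered in the table ran from 8393821 to 15165088 per library, and from 32822 to 95723 for the 36 genes. These sums cover selected rows, and library depth is unknown.

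Columns name the sort and a running number, so libraries were mapped to a sort and not to a labelled replicate. Whether the replicates came from separate embryo pools is not stated, and if not, errors measure only the spread between samples. Replicate pairs differed beyond sampling noise (chi-square per degree of freedom from 24.5 to 112.4). All rows were fitted with limma 3.58.1 in R 4.3.3 (empirical Bayes with a mean trend, pseudocount 1, no filter, no covariate, Benjamini-Hochberg over 2471 rows), after a test on simulated data. The fit gave standard errors and the background; members were not tested, because the table had been selected on the same contrast. Folds are 2 to the power of the size of the log2 difference. Gene IDs were paired with RefSeq symbols (assembly GRCz12tu), which matched 2444 rows; the builds differ, so no coordinates are given. The members and lists were chosen with earlier results of these data known. Values per library are printed for each higher member and each member of a subgroup of 4 or fewer. In other subgroups they are printed for the 3 largest differences among genes with a mean of 100 or more normalized reads, the highest mean and the smallest difference. The gene slc25a15b was added to these after its values were seen. Alternatives were 3 scalings, a pseudocount of 10, a minimum mean of 50 normalized reads, leaving out each library, limma-voom on recovered reads, the authors' fold changes and a size limit of 1.5.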

Additional observations from a re-analysis of the deposited data

How the results depend on the processing

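No member changed direction in 468 comparisons with an alternative, and 87 of these comparisons were counted as moved. That count was not set against the spread between replicates. For example, mrps33 moved from -1.20 to -0.71 with the same total and to -2.08 with median of ratios. On the lower side, 34 members stayed past the threshold under each of the scalings, filters, left-out libraries and limma-voom. The scalings moved the median log2 difference of all rows by 0.49 (same total), -0.11 (same total without globins) and -0.88 (median of ratios), and the median over the 36 genes to -0.76, -1.36 and -2.13. The last left 0 members higher by limma, also 0 at an unadjusted p under 0.05, where limma-voom on the deposited scaling gave 2. All of these scalings were computed from the selected rows, which hold no gene under 2-fold, so they do not decide which size is right. With a log2 difference of 1.5 or more required, 7 members were lower and 0 higher, and 585 and 651 of all rows. Leaving out 1 library at a time gave medians from -1.34 to -1.16, 34 lower and 2 higher members each time, and from 1122 to 1124 lower and 1343 to 1347 higher rows. The genes had been selected at 2-fold on these libraries, so these counts say nothing of stability. Library depth is unknown, and ndufa4, cox6a2, cox5b2, slc25a15b and slc25a35, with means under 200 normalized reads, are the least precise. No paired analysis was possible because column names number the libraries 1 to 6 and give no labelled replicate.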

Other observations

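Another 16 rows carried a description that names mitochondria without belonging to the 36 genes or the lists, and they were picked out after their values were seen. Of these, 14 were lower and 2 higher in NFKB+ cells, where 45.5% of all rows were lower and 54.5% higher. The lower rows included shmt2, the mitochondrial serine hydroxymethyltransferase of one-carbon metabolism, at 3.94-fold, and the malic enzyme gene me2 at 2.60-fold. They also included 6 genes of mitochondrial tRNA synthetases, rars2, sars2, yars2, nars2, fars2 and lars2, at 3.59-, 3.01-, 2.97-, 3.69-, 2.94- and 2.38-fold lower. The rows on the other side were me3, an NADP-dependent malic enzyme, at 2.35-fold higher, and the fission regulator gene mtfr1 at 2.45-fold higher. With median-of-ratios scaling the log2 differences of me3 and mtfr1 were 0.35 and 0.41, in place of 1.23 and 1.29. Both still passed the threshold on the higher side.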
